A study of Mus musculus with 18 samples.

Results

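The external granule cell layers of 18 newborn mice were ordered by the signal of decorin (Dcn), a matrix proteoglycan made by the fibroblasts of the meninges, and the 9 layers of highest signal were compared with the 9 of lowest signal. The members were chosen by the measured log2 signal of 1 probe of Dcn, ILMN_2747959. The high-Dcn group held 9 of the 18 layers and the low-Dcn group the other 9, and genotype and litter were kept as covariates when the groups were compared. Each layer was dissected at birth (P0) from 1 mouse of the strain B6EiC3SnF1/J A/a and measured on 1 Illumina bead array. Of the 18 mice 9 were Ts1Cje, which carry an extra copy of a segment of chromosome 16 and, through the translocation that made the line, lack a small segment of another chromosome on 1 copy, and 9 were euploid. They came from 3 litters of 6 mice, each with 3 Ts1Cje and 3 euploid mice and each litter filled 1 slide. Effects of litter and of slide cannot be told apart. The high-Dcn group held 5 Ts1Cje and 4 euploid layers, the low-Dcn group 4 Ts1Cje and 5 euploid layers. By litter, the high-Dcn group held 3 layers of litter 1, 1 of litter 2 and 5 of litter 3, and the low-Dcn group held 3, 5 and 1. Both layers whose source label names the cerebellum rather than the layer, euploid 5 and euploid 6, were in the low-Dcn group.

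The meninges are sheets of fibroblasts, with their own vessels, that cover the cerebellum directly over the external granule cell layer. Their cells lay down the basement membrane at the brain surface and secrete signals such as Cxcl12 that act on the granule cell precursors below. A layer peeled from the surface of the cerebellum can therefore carry more or less meningeal tissue along with the precursors.

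The values are log2 signals as deposited, in which a difference of 1 is a doubling. The mean was 6.69 on every array, the SD over probes lay between 1.54 and 1.63 in the high-Dcn layers and between 1.46 and 1.61 in the low-Dcn layers, and arrays correlated with each other at 0.981 to 0.995. Both arrays of smallest spread, euploid 4 and euploid 6, were low-Dcn layers. Without them, an alternative chosen after seeing the data, 40 probes were higher and 11 lower by at least 1.5-fold, the same counts as with them. Because the groups were made from a measured signal, differences between them are given with their standard error (SE) as a description, and no p-value was computed between them. A probe is said to pass 1.5-fold when its fitted difference was at least 0.585 on the log2 scale in either direction. Only the comparison of Ts1Cje with euploid mice, which rests on the labels, was tested.

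The Dcn signal ran from 8.79 to 10.98 with a median of 9.78 in the high-Dcn layers, and from 5.46 to 8.73 with a median of 6.03 in the low-Dcn layers. The step at the border was small, since the lowest high-Dcn layer, euploid 2, had 8.79 and the highest low-Dcn layer, Ts1Cje 6, had 8.73. There was thus no gap in Dcn signal between the groups. A second probe of Dcn, ILMN_2596346, gave 7.31 to 9.55 in high-Dcn and 5.84 to 7.50 in low-Dcn layers, and its 9 highest layers included 8 of the high-Dcn group. The probe ILMN_2716756 gave a mean 2.01 higher in the high-Dcn layers, while the remaining 2 of the 5 probes of Dcn, both dim, differed by -0.07 and 0.20.

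**Figure D1:**
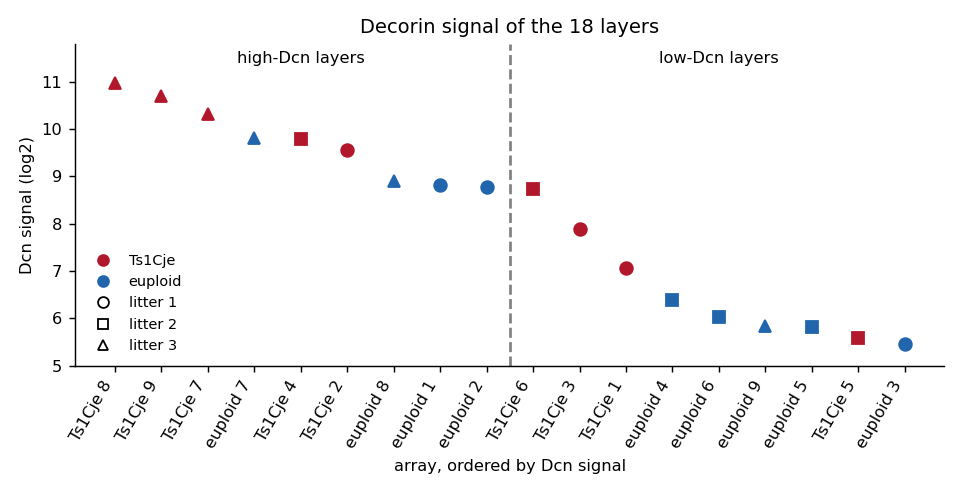
The plot gives the log2 signal of the Dcn probe for each of the 18 arrays in order of signal, with genotype by colour and litter by symbol, and a dashed line between the 9 high-Dcn and the 9 low-Dcn layers. The signal runs from 10.98 to 5.46, and the layers on either side of the line differ by little, 8.79 against 8.73.

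The promoters of 3 genes are printed because these genes had some of the largest and most precise differences between the groups and 1 start site each in the RefSeq table (build GRCm38.p6). They are the 250 bases before the start of transcription of S100a6 (chr3:90612644-90612893, plus strand), Cldn11 (chr3:31149670-31149919, plus strand) and Cxcl12 (chr6:117168285-117168534, plus strand), written 5′ to 3′. Capitals mark matches, on either strand, to the TATA box TATAAA, the CCAAT box CCAAT and the GC box GGGCGG. These motifs were found in 12.4%, 33.8% and 32.7% of the 32851 promoter windows of this length in the table, and the matches are a description of the letters only.
S100a6: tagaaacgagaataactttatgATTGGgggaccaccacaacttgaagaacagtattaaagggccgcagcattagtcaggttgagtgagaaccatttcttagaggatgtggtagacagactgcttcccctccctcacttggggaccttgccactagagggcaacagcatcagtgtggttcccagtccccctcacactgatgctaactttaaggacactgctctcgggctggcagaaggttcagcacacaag
Cldn11: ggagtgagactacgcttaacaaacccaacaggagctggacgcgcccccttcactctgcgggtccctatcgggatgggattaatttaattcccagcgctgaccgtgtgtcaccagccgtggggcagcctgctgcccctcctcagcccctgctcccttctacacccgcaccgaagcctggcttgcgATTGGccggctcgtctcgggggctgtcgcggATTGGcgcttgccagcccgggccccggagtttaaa
Cxcl12: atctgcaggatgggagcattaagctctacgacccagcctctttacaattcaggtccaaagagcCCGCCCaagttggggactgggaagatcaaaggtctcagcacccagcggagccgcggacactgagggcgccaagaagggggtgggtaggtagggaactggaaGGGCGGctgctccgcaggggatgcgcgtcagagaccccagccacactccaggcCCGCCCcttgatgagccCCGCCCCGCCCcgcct
S100a6 held 1 match to the CCAAT box and Cldn11 held 2, at 66 and 35 bases before the start. Cxcl12 held 5 matches to the GC box, of which the last 2, on the opposite strand, overlap by 1 base. None of the 3 windows held TATAAA. The table held 3 starts for Slc6a13 and 4 for Igf2, which are not shown.

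Over 11295 probes with a mean log2 signal of at least 7.14, probes of Dcn left out, 40 (0.354%) passed 1.5-fold as higher in the high-Dcn layers and 11 (0.0974%) as lower. Among the named higher probes with an SE under 0.25, the largest differences were those of Slc6a13, S100a6 and Cldn11, genes of meningeal cells, of the growth factor Igf2 and of the chemokine Cxcl12. Other probes with differences as large, Prdx2, Csrp1 and Pdrg1 among them, had a larger SE. Counted by gene, with each gene represented by its brightest tested probe, 27 of 7135 genes (0.378%) were higher and 6 (0.0841%) lower, and 5351 (75%) had a positive difference of any size. In a dissected layer, fewer cells of a type and less RNA per cell cannot be told apart. The median difference over all probes tested was 0.04. The counts depended on single layers, since litter 2 had only 1 high-Dcn layer, Ts1Cje 4, without which 67 probes were higher and 20 lower, and without euploid 9, the only low-Dcn layer of litter 3, 17 were lower.

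The direction repeated across litters for 29 of the 40 higher probes (0.257% of all tested) and for 4 of the 11 lower ones (0.0354%). The 21 higher probes whose SE was under 0.25 had the same sign in each of the 3 litters, as had 8 of the 19 with a larger SE. Groups without any overlap, so that every high-Dcn layer lay above every low-Dcn layer, were found for 9 probes (0.0797%), and the opposite for 1 unnamed probe (0.00885%). Because probes were kept by their mean signal, 7 of the 40 higher probes had a mean below the minimum of 7.14 in the low-Dcn layers and passed through their signal in the high-Dcn layers. Likewise 4 of the 11 lower probes, Trim11 and 3 unnamed ones, had a mean below it in the high-Dcn layers and passed through the low-Dcn layers.

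The 3 markers that were to check the label gave different answers. Slc6a13, a transporter of GABA and taurine found in the meninges, had 7.34, 8.27 and 9.58 as the lowest, median and highest signal of the high-Dcn layers, and 5.77, 5.95 and 7.52 in the low-Dcn layers. The groups overlapped at the edge, with 7 of the 9 high-Dcn layers above every low-Dcn layer. The low-Dcn median of Slc6a13 was no higher than the median over all probes of those arrays, which lay between 5.96 and 6.05, and its low-Dcn mean of 6.23 was under the signal minimum, so that it was tested through its high-Dcn signal and no fold is given. The fitted difference was 1.78 (SE 0.25), and it was 1.59 among the Ts1Cje layers and 1.90 among the euploid layers alone.

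Fbln1, the matrix glycoprotein fibulin-1, reached only 0.14 (SE 0.07), with 9.46 to 9.84 in the high-Dcn layers and 9.24 to 9.81 in the low-Dcn layers. Islr, a secreted leucine-rich protein of fibroblasts, reached 0.31 (SE 0.19), with 8.52 to 8.95 and 7.25 to 8.75 in the high-Dcn and the low-Dcn layers. Both overlapped widely, and neither passed 1.5-fold. The order given by the mean log2 signal of Fbln1, Islr and Slc6a13 shared 8 of the 9 high-Dcn and 8 of the 9 low-Dcn layers. That mean leans on Slc6a13, which had the widest range of the 3, from 5.77 to 9.58. The sharing is therefore no check of the groups by all 3 markers. Because 2 of the 3 markers stayed under 1.5-fold, the groups are named here by Dcn and not by their meningeal share.

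S100a6, a calcium-binding protein abundant in fibroblasts, had 8.27, 9.49 and 10.37 as lowest, median and highest signal in the high-Dcn layers, and 7.18, 7.48 and 8.70 in the low-Dcn layers. Its difference was 1.39 (SE 0.18), a ratio of 2.63, and 7 of the 9 high-Dcn layers lay above every low-Dcn layer. The difference was largest in litter 3, at 2.30, against 1.19 in litter 1 and 1.39 in litter 2. Litter 3 set 5 high-Dcn layers against a single low-Dcn layer, and litter 2 set a single high-Dcn layer against 5.

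Cldn11, a claudin of the tight junctions of the arachnoid barrier and of oligodendrocytes, separated the groups completely. It had 7.93, 8.83 and 10.13 in the high-Dcn layers and 6.73, 7.14 and 7.91 in the low-Dcn layers, a difference of 1.36 (SE 0.19) and a ratio of 2.56. The distance between the groups was narrow all the same, from 7.93 for the lowest high-Dcn layer to 7.91 for the highest low-Dcn layer. The oligodendrocyte list, 8 tested genes of that lineage, had a median difference of 0.03 and none past 1.5-fold.

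The other 3 tested genes of the meningeal list differed little. Pdgfra, the receptor for platelet-derived growth factor, reached 0.16 (SE 0.13), and Thbs2 and Serping1 lay below it. Of the 30 genes on the list 28 were on the array and only 8 were tested, of which 3 passed 1.5-fold as higher, against 0.378% of all genes tested. All 8 had positive differences, against 75% of all genes, with a median of 0.23 against 0.05. Slc6a13 is 1 of the 3 and was tested through its high-Dcn signal, so it adds to the 3, to the 8 and to the median. The 20 genes under the signal minimum included Foxc1, Foxc2, Foxd1, Twist1, Aldh1a2, Crabp2, Ptgds, Mgp, Slc22a6 and Nupr1. Over all 28, dim genes included, the median was 0.08, against 0.01 over the 17710 genes on the array. The summed linear signal of the 8 tested genes ran from 3238 to 6083 in the high-Dcn layers and from 2449 to 3325 in the low-Dcn layers, so the groups overlapped slightly.

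**Figure D2:**
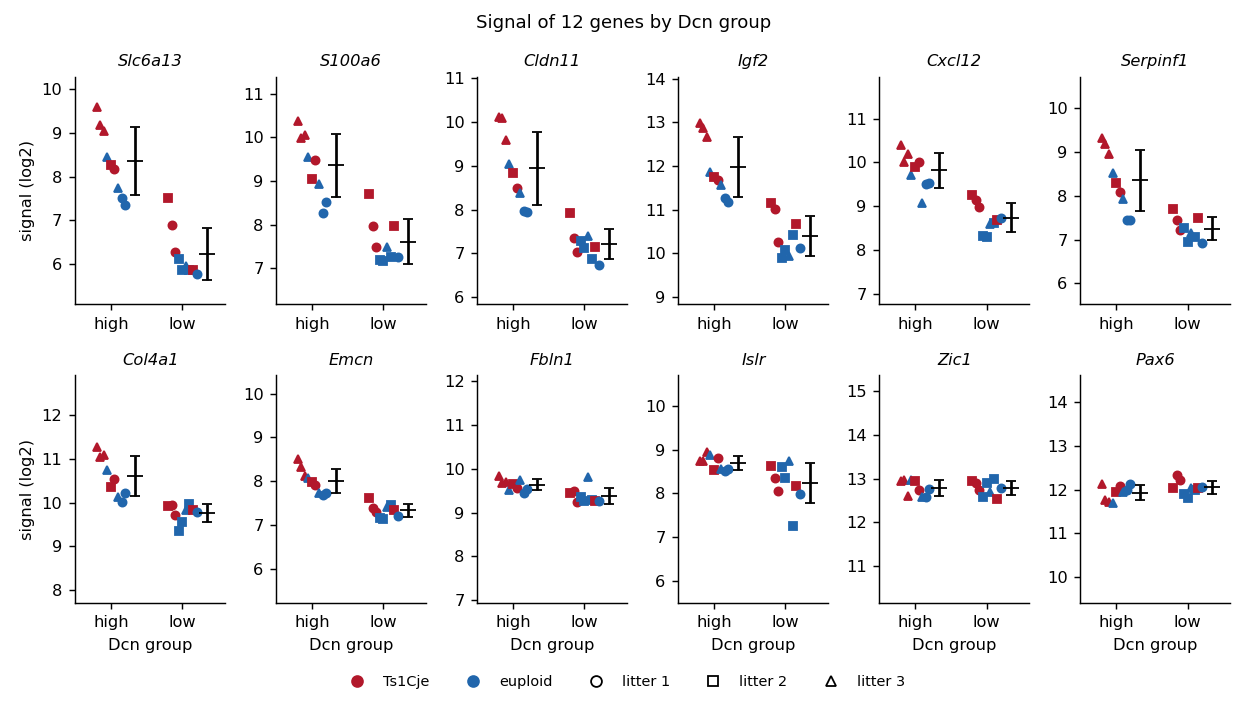
Each panel gives the log2 signal of 1 gene in the 9 high-Dcn layers and the 9 low-Dcn layers, with genotype by colour and litter by symbol, and beside each group its mean and SD (n = 9 each), on axes of equal span. The groups do not overlap for Cldn11, Igf2, Col4a1 and Emcn, 7 of the 9 high-Dcn layers lie above every low-Dcn layer for Slc6a13 and S100a6, and the groups overlap widely for Fbln1, Islr, Zic1 and Pax6.

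Among the secreted signals, Igf2, a paternally expressed growth factor made by the meninges and choroid plexus, was the second gene with no overlap. Its signal was 11.17, 11.75 and 12.98 in the high-Dcn layers and 9.88, 10.26 and 11.14 in the low-Dcn layers. The difference was 1.29 (SE 0.19), a ratio of 2.44, and it was 0.92, 1.31 and 2.44 within litters 1, 2 and 3.

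Cxcl12, the meningeal chemokine that holds granule cell precursors at the surface through the receptor Cxcr4, had 9.08, 9.91 and 10.40 in the high-Dcn layers and 8.30, 8.67 and 9.26 in the low-Dcn layers. The difference was 0.93 (SE 0.13), a ratio of 1.91, and 8 of the 9 high-Dcn layers lay above every low-Dcn layer. A second tested probe of Cxcl12, ILMN_2737302, gave only 0.28 (SE 0.23), so the 2 probes disagree on the size.

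The binding proteins of insulin-like growth factors did not follow as a group. Igfbp4 reached 0.49 (SE 0.15) and a second probe of it, ILMN_1239075, separated the groups without overlap at 0.50 (SE 0.12). Igfbp7 reached 0.36 (SE 0.13), while Igfbp5, the brightest of them, had -0.05 (SE 0.13). Of the 17 tested genes on the list of secreted signals 2 passed 1.5-fold, Igf2 and Cxcl12, and none was lower, with a median of 0.12.

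Dlk1, a paternally expressed membrane protein of the Notch ligand family, had 7.18, 8.49 and 8.96 in the high-Dcn layers against 6.43, 7.34 and 8.38 in the low-Dcn layers. The groups overlapped widely, and the difference of 0.77 had an SE of 0.26. Apod, a lipid-binding apolipoprotein of fibroblasts and glia, differed by 0.84 (SE 0.16), and 6 of its 9 high-Dcn values lay above every low-Dcn value. Both had the same sign in every litter.

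Among the collagens, Col6a1, a chain of the beaded-filament collagen VI, had 7.76, 8.46 and 9.48 in the high-Dcn layers and 7.01, 7.64 and 8.01 in the low-Dcn layers, with a difference of 0.68 (SE 0.16). Col4a1 and Col4a2, which form the collagen IV of basement membranes, differed by 0.58 (SE 0.13) and 0.53 (SE 0.12), just short of the fold. Col4a1 did not overlap between the groups, with 10.01 to 11.27 in the high-Dcn layers and 9.36 to 9.97 in the low-Dcn layers.

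Col2a1, the fibrillar collagen of cartilage, went the other way, at -0.62 (SE 0.30). Its signal was 7.10 to 8.64 in the high-Dcn layers and 7.49 to 9.08 in the low-Dcn layers, and its sign was positive in litter 2, at 0.33. Of the 13 tested collagens 1 passed 1.5-fold as higher and 1 as lower, with a median of 0.24. Several collagens of fibroblasts were under the signal minimum and were not counted, and the values of 4 of them were picked out after a look at the data. Of these Col15a1 differed by 1.10 (SE 0.17), Col1a1 by 0.79 (SE 0.17), Col3a1 by 0.46 (SE 0.11) and Col1a2 by 0.05 (SE 0.08).

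The glycoproteins of the basement membrane differed little. Lamc1, the common gamma chain of laminins, reached 0.33 (SE 0.07) and Hspg2, the heparan sulfate proteoglycan perlecan, 0.23 (SE 0.10). Agrn, the heparan sulfate proteoglycan agrin, and Tnc, the glycoprotein tenascin-C, the brightest of the list, had -0.06 (SE 0.09) and -0.15 (SE 0.17). None of the 12 tested members passed 1.5-fold and the median was 0.07. Of the small leucine-rich proteoglycans, the family of Dcn, only Prelp was tested, with 0.25 (SE 0.30).

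Among matrix proteases and inhibitors, Serpinf1, the antiangiogenic serpin also called pigment epithelium-derived factor, stood first. It had 7.44, 8.29 and 9.32 in the high-Dcn layers and 6.91, 7.21 and 7.69 in the low-Dcn layers, a difference of 0.81 (SE 0.13). Adamts12, a matrix metalloprotease, reached 0.56 (SE 0.12) and Timp3, an inhibitor bound to the matrix, 0.25 (SE 0.08), while Timp2 had 0.00 (SE 0.13). Of the 11 tested members 1 passed 1.5-fold, and the median was 0.10.

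**Figure D3:**
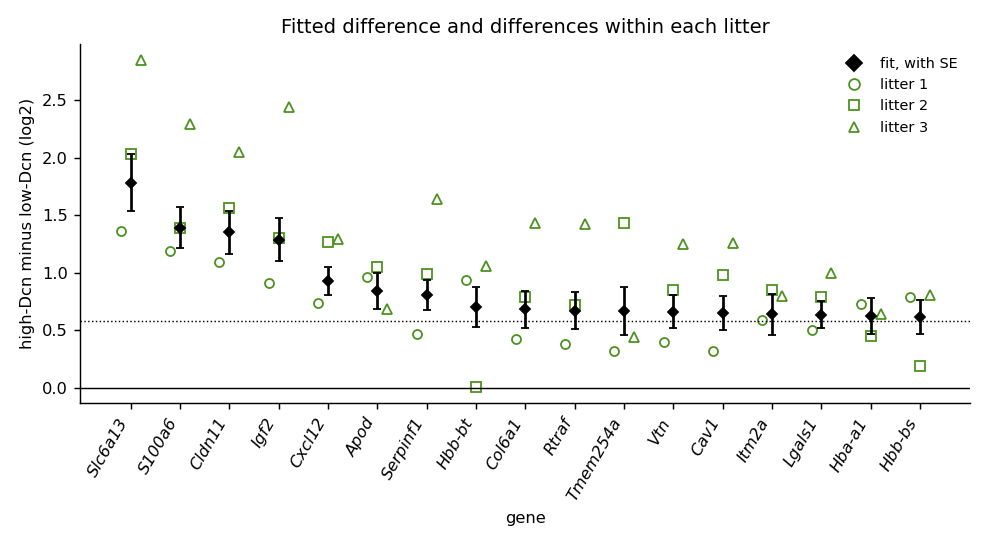
For each named gene past 1.5-fold with an SE under 0.25 on its brightest such probe, the filled diamond is the fitted difference between high-Dcn and low-Dcn layers with its SE, and open symbols are the differences of group means within litters 1, 2 and 3 (log2). All of these differences are above 0, and those of litter 3, with a single low-Dcn layer, are the largest for Slc6a13, S100a6, Cldn11 and Igf2.

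Genes of vessels were higher as a set of small differences. Emcn, the sialoglycoprotein endomucin of capillary and venous endothelium, had 7.69, 7.98 and 8.50 in the high-Dcn layers and 7.13, 7.35 and 7.61 in the low-Dcn layers, with no overlap, and differed by 0.55 (SE 0.08). Cldn5, the claudin of the blood-brain barrier, differed by 0.38 (SE 0.12), and 8 of its 9 high-Dcn values lay above every low-Dcn value. Esam and Egfl7, both endothelial, reached 0.47 (SE 0.11) and 0.45 (SE 0.11).

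None of the 11 tested endothelial genes passed 1.5-fold, but all 11 differences were positive, against 75% of all genes tested. All 11 also had the same sign in every litter, a share that was not counted over all genes. Litters 2 and 3 each held a single layer of 1 of the groups. The median of the 11 was 0.33 against 0.05 over all genes tested. After quantile normalization the median was 0.31 and 10 of the 11 were positive. The summed endothelial signal ran from 6394 to 12439 in the high-Dcn layers and from 4679 to 6673 in the low-Dcn layers. Kdr, Tek, Tie1, Ly6c1, Esm1, Plvap and Sox17 were under the signal minimum and not counted. The marker Kdr had -0.09 (SE 0.07), while the tested markers Pecam1 and Cdh5 had 0.23 (SE 0.11) and 0.36 (SE 0.11). Among the probes without overlap were also Gja4, a connexin of arterial endothelium, at 0.55, Nos3, the endothelial nitric oxide synthase, at 0.21, Tgfbr3, a coreceptor for TGF-beta, at 0.40, and Prickle1, a planar polarity protein, at 0.23. These 4 genes were not picked by the naming rule but after a look at their values.

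The tested pericyte genes did not follow as the endothelial ones did. Vtn, the adhesive glycoprotein vitronectin, had 7.87, 8.49 and 9.53 in the high-Dcn layers and 7.18, 7.74 and 7.97 in the low-Dcn layers, a difference of 0.66 (SE 0.14). Rgs5 and Notch3, markers of pericytes and smooth muscle, had 0.03 (SE 0.24) and 0.07 (SE 0.07). Of 5 tested genes 1 passed 1.5-fold and the median was 0.04. The tested marker Cspg4 had -0.0004 (SE 0.05). The markers Pdgfrb and Kcnj8, under the signal minimum, had 0.14 (SE 0.06) and 0.11 (SE 0.05). Abcc9, Anpep, Acta2, Tagln, Cnn1, Des and Tbx18 were also under the minimum. Of all these untested genes 1 passed 1.5-fold as higher and was not counted. Cav1, the scaffold of caveolae, abundant in fibroblasts and endothelium, differed by 0.65 (SE 0.15).

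Blood was measured as well. Hba-a1, an alpha-globin, had 11.86, 12.60 and 12.83 in the high-Dcn layers and 11.55, 12.13 and 12.73 in the low-Dcn layers, and Hbb-bs and Hbb-bt, the adult beta-globins, covered nearly the same ranges. The groups overlapped almost fully, and the fitted differences were 0.63 (SE 0.16), 0.61 (SE 0.15) and 0.55 (SE 0.14). Of these 3 tested genes 2 passed 1.5-fold, and their median was 0.61 against 0.05 over all genes tested. Several globin probes were thus among the 40 higher probes. Other probes reached 0.925 (SE 0.26) for Hbb-bs, with -0.36 in litter 2, and 0.71 (SE 0.18) for Hbb-bt. The globins are near-identical copies, and their probes may share signal. Alas2, the erythroid enzyme of haem synthesis, was under the signal minimum. The summed erythroid signal ran from 12918 to 21856 in the high-Dcn layers and from 9939 to 20733 in the low-Dcn layers, and its part in the differences of vessel genes was not tested.

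Genes of the interferon response and antigen presentation stayed under 1.5-fold. B2m, the light chain of class I molecules, differed by 0.54 (SE 0.14) and Ifitm3, an antiviral membrane protein also expressed by endothelium and fibroblasts, by 0.53 (SE 0.12), while Bst2, another interferon-induced protein, had 0.23 (SE 0.13). Of the 7 tested members 4 lay above the median of all genes tested, and the median of the list was 0.23. Microglia and macrophages were covered by only 2 tested genes, Fcer1g at 0.42 (SE 0.23) and Laptm5 at 0.10 (SE 0.19), and their median of 0.26 turned to -0.26 between the 6 highest and the 6 lowest layers. The defining markers Cx3cr1, Aif1 and C1qb were under the signal minimum.

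Transporters of the barriers, 4 tested genes, had a median of 0.24 and none passed 1.5-fold. Slc7a5, which carries large neutral amino acids, reached 0.38 (SE 0.14), Slc2a1, the glucose transporter GLUT1, 0.30 (SE 0.11), and Slco1c1, which carries thyroid hormone, 0.19 (SE 0.13).

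Genes of the neural cells of the layer differed little between the groups. Zic1, a transcription factor of granule cell precursors, had 12.58, 12.76 and 12.98 in the high-Dcn layers and 12.54, 12.79 and 12.99 in the low-Dcn layers, with a difference of 0.01 (SE 0.10). Pax6, which marks the same lineage, had -0.13 (SE 0.07). The groups lay on top of each other. Atoh1, the defining factor of these precursors, was under the signal minimum, with a mean signal of 5.69. None of 12 tested precursor genes, 18 genes of postmitotic granule cells, 11 of Purkinje cells and 7 of GABAergic interneurons passed 1.5-fold in either direction.

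The medians of these 4 lists were 0.01, 0.01, -0.0017 and -0.01, against 0.05 over all genes tested. Calb1, the calcium-binding protein of Purkinje cells, reached 0.35 (SE 0.25) and Pcp2, found in the same cells, 0.06 (SE 0.24). Among 14 tested genes of astroglia none passed 1.5-fold and the median was 0.06. Gja1, the main connexin of astroglia and also of meningeal cells, had the largest difference there, 0.37 (SE 0.09), whereas Slc1a3, the glutamate transporter GLAST, had -0.02 (SE 0.06) and Aqp4, the water channel, 0.05 (SE 0.14).

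**Figure D4:**
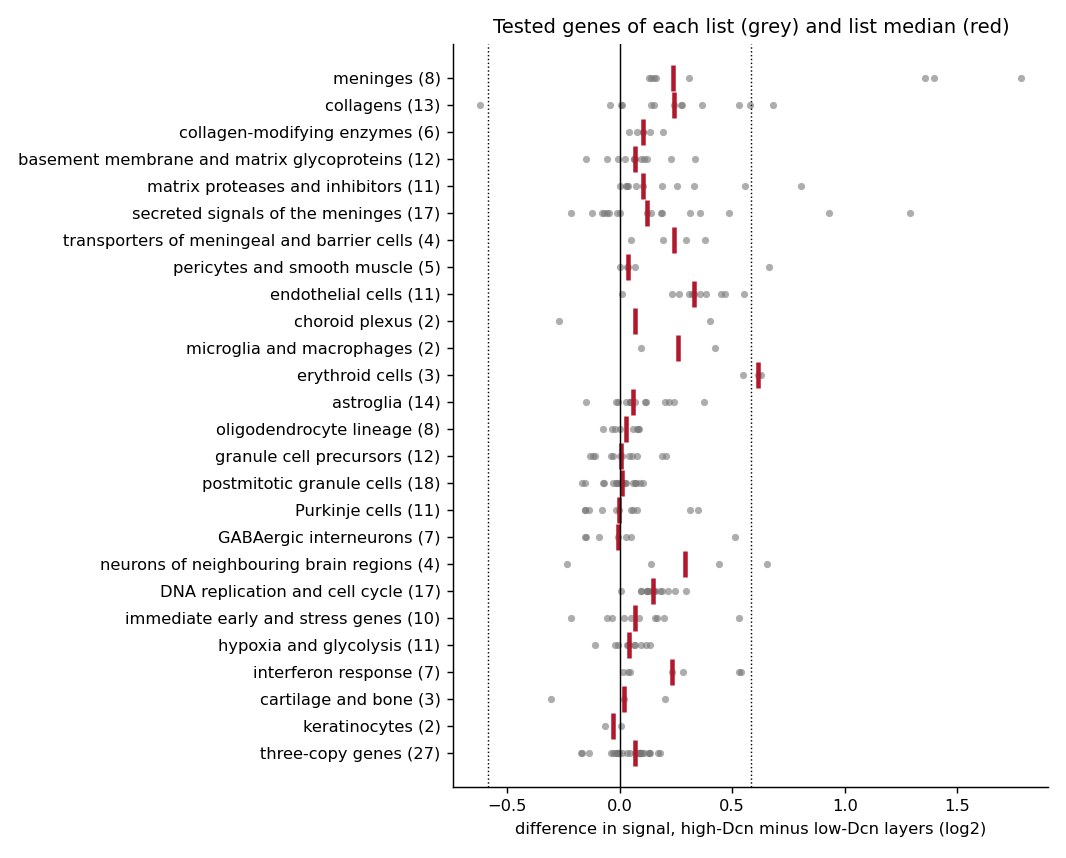
Each row is a list of genes with at least 2 tested members, their number in brackets; grey points are the differences of single genes between high-Dcn and low-Dcn layers (log2), red bars the medians, and dotted lines 1.5-fold. The median is 0.33 for endothelial cells and 0.61 for erythroid cells, and near 0 for granule and Purkinje cells.

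For genes of DNA replication and the cell cycle, all 17 tested members had positive differences, against 75% of all genes tested, from 0.01 to 0.30, with a median of 0.15, and none passed 1.5-fold. Bub1b, a mitotic checkpoint kinase, stood first at 0.30 (SE 0.14), Rrm1, a subunit of ribonucleotide reductase, reached 0.25 (SE 0.10), and the replicative helicase subunits Mcm5 and Mcm4 reached 0.16 (SE 0.09) and 0.09 (SE 0.09). Only 1 of the 17 had the same sign in every litter, and the median was 0.25 among the Ts1Cje layers and 0.01 among the euploid layers. The difference between these 2 medians was not tested.

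Genes set as markers of tissue next to the layer varied between single mice, but Otx1, Otx2 and En1 are not particular to such tissue. Ttr, the transthyretin of the choroid plexus, reached 13.58 in 1 high-Dcn layer, euploid 8, while the medians were 7.69 in the high-Dcn and 7.26 in the low-Dcn layers, and its fitted difference of 0.40 had an SE of 0.86. Otx2, a homeobox factor of choroid plexus and of the posterior cerebellum, ran from 5.81 to 9.31 in the high-Dcn layers and from 6.11 to 9.84 in the low-Dcn layers. Otx1, a related factor, had 7.01, 8.80 and 9.52 in the high-Dcn and 6.13, 6.86 and 8.58 in the low-Dcn layers, a difference of 0.65 (SE 0.30). En1, a factor of midbrain and hindbrain, the cerebellum included, had 0.44 (SE 0.39). The choroid plexus markers Kl and Folr1 were under the signal minimum, and so were the muscle markers Acta1, Tnnt3 and Ckm. The summed choroid plexus signal of 2 tested genes had a median of 405 and a highest value of 12543 in the high-Dcn layers, against 444 and 1069 in the low-Dcn layers.

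No gene passed 1.5-fold in 6 further lists. Their medians were 0.10 for 6 collagen-modifying enzymes, 0.07 for 10 immediate early and stress genes, 0.04 for 11 genes of hypoxia and glycolysis, 0.02 for 3 genes of cartilage and bone, -0.03 for 2 genes of keratinocytes and -0.05 for the only tested gene of the retinoic acid pathway. Neurons of neighbouring brain regions had 4 tested genes and a median of 0.29, with Otx1 past 1.5-fold.

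Some of the largest differences had large errors. Prdx2, a peroxiredoxin, had 5.83 to 11.04 in the high-Dcn layers and 5.82 to 10.97 in the low-Dcn layers, so that its difference of 1.62 came with an SE of 1.06. Its groups overlapped over nearly the whole range. On each array Prdx2 lay either between 5.82 and 6.02 or between 9.84 and 11.04, and both ranges occurred in both groups. Pdrg1, at 1.14 (SE 0.72), had 5.75 to 10.35 in the high-Dcn layers and 5.70 to 9.59 in the low-Dcn layers. On each array it lay either between 5.70 and 5.82 or between 9.38 and 10.35. Csrp1, a LIM-domain protein of smooth muscle, at 1.28 (SE 0.52), had 8.74 to 10.02 in the high-Dcn layers and 5.79 to 9.57 in the low-Dcn layers, and for both genes 5 of the 9 high-Dcn layers lay above every low-Dcn layer.

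The lower side was thin. The lowest difference was that of Xist, the RNA of the inactive X chromosome, with -2.24 (SE 1.32). On each array Xist lay either between 10.38 and 11.53 or between 6.08 and 6.56, and it was in the upper range in 2 of the 9 high-Dcn and 5 of the 9 low-Dcn layers, whereas the Y-linked Eif2s3y and Kdm5d were in theirs in 6 high-Dcn and 4 low-Dcn layers. In 1 high-Dcn layer, euploid 2, neither was. Sex-linked expression was thus unevenly spread over the groups, and its part in the other differences was read from 1 further fit. With the Xist signal as an added covariate, a choice made after seeing the data, the endothelial and meningeal medians were 0.33 and 0.26. Trim11, a ubiquitin ligase, and Kbtbd11 had -0.90 (SE 0.45) and -0.63 (SE 0.42), and Glrx, a glutaredoxin, had -0.66 (SE 0.59). Of the 11 lower probes only 2 had an SE under 0.25, both without a gene name and both with a high-Dcn mean under the signal minimum, at 7.07 and 6.97.

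Dcn itself averaged 8.96 ± 1.81 in Ts1Cje and 7.32 ± 1.72 in euploid layers (SD, n = 9 each), a difference of 1.64 (SE 0.73) that did not pass the limma test over 11297 probes (adjusted p = 0.998). With litter as a block its SE was 0.61. The second probe, ILMN_2596346, was 1.16 higher in Ts1Cje layers (SE 0.47, and 0.36 with litter as a block). In limma both probes passed the unadjusted level of 0.05, with or without litter as a block, and neither passed after adjustment. The missing call thus does not show that Dcn was unrelated to genotype. The question was therefore whether genes that go with Dcn also pass as genotype effects. Of the 40 higher probes, 32 were higher in Ts1Cje layers, with a median difference of 0.45, against 0.015 over all probes tested. The share of all probes that were higher in Ts1Cje layers was not counted, and the 40 were picked for following Dcn. In limma without a term for litter, 0 of the 40 had an adjusted p under 0.05, whereas 38 of all probes tested (0.336%) did. At an unadjusted p under 0.05, 15 of the 40 were called, and 442 of all probes (3.91%). With litter as a block in limma 0 of the 40 passed again (0.593% of all probes did), with 18 at the unadjusted level (7.1% of all), and the unmoderated test per probe that the methods describe called 0 (0.301% of all probes), with 9 at the unadjusted level (3.84% of all).

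With litter and the Dcn group as terms, 13 of the 40 passed, and 89 of all probes (0.788%). At an unadjusted p under 0.05 these were 19 of the 40 and 7.39% of all. By limma, S100a6 differed by 0.89 (SE 0.13, adjusted p = 0.0012), Serpinf1 by 0.69 (SE 0.10, adjusted p = 0.0011), Igf2 by 0.83 (SE 0.14, adjusted p = 0.0040), Cxcl12 by 0.58 (SE 0.10, adjusted p = 0.0037) and Slc6a13 by 0.93 (SE 0.18, adjusted p = 0.012), all higher in Ts1Cje. A group of 2 levels leaves part of the Dcn signal in place, since within the high-Dcn group the 5 Ts1Cje layers had 9.57 to 10.98 and the 4 euploid layers 8.79 to 9.82, and within the low-Dcn group the 4 Ts1Cje layers had 5.60 to 8.73 and the 5 euploid layers 5.46 to 6.38.

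When the Dcn signal itself replaced the group, a fit chosen after seeing the data, 0 of the 40 passed, with 7 at an unadjusted p under 0.05 (6.67% of all probes), and 29 of all probes (0.257%) did. The median genotype difference of the 40 became 0.01. In that limma fit S100a6 differed by 0.33 (SE 0.15, adjusted p = 0.72) and Slc6a13 by 0.13 (SE 0.09, adjusted p = 0.77). The 2 terms thus gave opposite calls for these genes, and genotype and Dcn signal cannot be fully told apart in 18 layers. The 40 were picked for following this same Dcn signal, which was itself higher in Ts1Cje layers. Their smaller genotype difference with the signal as a term was thus in part set by the selection. The opposite calls therefore do not decide whether these genes differ by genotype.

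Some named genes that did not pass 1.5-fold between the Dcn groups were called for genotype with litter as a block and not without it. The adjusted p in limma with litter as a block alone was 0.00062 for Col23a1, 0.0015 for Aqp4, 0.0031 for Slc40a1 and 0.031 for Synpo. These calls thus did not need a term for Dcn. Col23a1, of the collagen list, was 0.44 higher in Ts1Cje by limma (SE 0.06, adjusted p = 0.00058) with litter and the Dcn group as terms. It kept its call with the Dcn signal as the term (limma, adjusted p = 0.0020). Aqp4, the water channel of astroglia, was 0.65 higher in Ts1Cje by limma (SE 0.10, adjusted p = 0.0028) with litter and the Dcn group as terms. It also kept its call with the Dcn signal as the term (limma, adjusted p = 0.020). Slc40a1, the iron exporter ferroportin, differed by 0.57 by limma (SE 0.09, adjusted p = 0.0022) and had an adjusted p of 0.083 with the signal. Synpo, an actin-binding protein, differed by 0.53 by limma (SE 0.09, adjusted p = 0.0028) and had an adjusted p of 0.30 with the signal. Of the 27 tested genes that Ts1Cje mice carry in 3 copies none passed 1.5-fold between the Dcn groups, with a median there of 0.07.

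**Figure D5:**
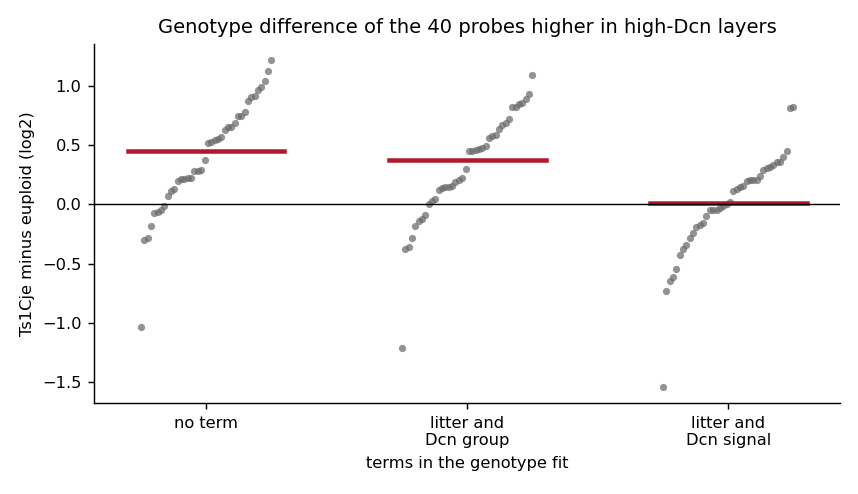
Each point is the log2 difference between Ts1Cje and euploid layers for 1 of the 40 probes higher in high-Dcn layers, under 3 fits, and red bars are medians. The median is 0.45 with no term, 0.38 with litter and the Dcn group, and 0.01 with litter and the Dcn signal. The 40 were picked for following that signal, so the last median is in part set by the selection.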

How the data were processed

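The external granule cell layer of each of 18 mice was measured on 1 Illumina Mouse-6 bead array from biotin-labelled cRNA. The authors summarised the beads in Beadstudio and scaled each array using the mean signal over all 18 of them, and the deposited values are on a log2 scale, a step that is not stated in the sources used here. Of 46632 probes, 29976 had 1 gene symbol, 10 several and 16646 none, and symbols were updated through Entrez identifiers for 29921.

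Groups were made from a measured value, the Dcn signal. Members and gene lists were chosen with earlier results of these data known. Probes with a mean log2 signal of at least 7.14 were kept, 11297 of them, and 2 probes of Dcn were removed. Differences were fitted with limma 3.58.1 (R 4.3.3) with Dcn group, genotype and litter as terms. Genotype was tested with limma's moderated test, two-sided, with Benjamini-Hochberg adjustment over all probes tested and a threshold of 0.05, without further terms, and with the added terms named in the text. The fitting code was tested on simulated data. Tables were handled in Python 3.11.15 with pandas 2.3.3.

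Named genes are the markers, the 20 highest and 12 lowest differences, up to 4 members per list by size and 2 by signal, and up to 10 genes whose genotype call changed between fits. Each mouse gave 1 array, and precision is bounded by how many arrays there were.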

Additional observations from a re-analysis of the deposited data

Results flagged for a closer look

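Among the 9 layers of each Dcn group, 1 layer stood apart from the others for 12 of the 144 gene and group combinations checked by Dixon's test, and chance alone flags about 1 in 20. Euploid 9, the only low-Dcn layer of litter 3, was the highest low-Dcn layer for 5 genes. It had 9.81 for Fbln1 (next layer 9.49), 9.77 for Egfl7 (9.37), 11.55 for Mcm5 (11.08), 14.33 for Gapdh (14.09) and 8.25 for Bst2 (7.33). Euploid 5 was the highest low-Dcn layer for Prelp, with 7.96 (next 7.21), and Ts1Cje 5 for Fcer1g, with 7.76 (next 6.98).

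Other layers were the lowest of their group. In the high-Dcn group, euploid 7 had 5.83 for Prdx2 (next 9.84) and 5.75 for Pdrg1 (next 9.38). In the low-Dcn group, euploid 3 had 6.23 for Trim11 (next 7.58), Ts1Cje 5 had 6.61 for Glrx (next 8.54) and euploid 4 had 7.12 for Slco1c1 (next 7.64).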

How the results depend on the processing

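Past 1.5-fold there were 40 probes higher and 11 lower. The pair of counts became 86 and 42 between the 6 highest and 6 lowest layers, 85 and 17 with no covariates, 78 and 28 with the 5th percentile subtracted as background, 71 and 46 in Ts1Cje and 63 and 54 in euploid layers alone, 25 and 4 at a mean signal of at least 8, and 9 and 2 at a fold of 2. Lower probes numbered 29 without litter 1, 17 without litter 3, and 20 with the Xist signal as a covariate, which was chosen after seeing the data; without litter 2 the counts were 67 and 20. Leaving out 1 layer gave 33 to 67 higher and 8 to 20 lower probes. Probes without overlap and lower numbered 0 after quantile normalization, against 1. Among the probes past 1.5-fold, 14 were called for genotype with litter and the Dcn group as terms and 1 without litter 1, against 0. Pdrg1 changed sign between the 6 highest and 6 lowest layers (-0.29), and Glrx there (0.38) and when layers were ranked within litters (0.013). Several genes under 1.5-fold also had both signs over the alternatives, such as Bub1b (-0.17 to 0.60), Bst2 (-0.12 to 0.68), Fcer1g (-0.10 to 0.76) and Ttr (-0.60 to 1.27). The cause was not tested. Slc6a13 stayed between 1.34 and 2.89 over the alternatives run, but 1 of these ranked the layers partly by Slc6a13 itself. The gene was also tested through its high-Dcn signal. No paired analysis was possible because replicate numbers were given in accession order; litter was the block.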
